A study of Rattus norvegicus with 24 samples.

Results

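Apoe, Clu, Agt, Sparc, Sparcl1, Cst3 and Cpe, genes of proteins that astrocytes secrete, were followed through the differentiation of Sprague-Dawley rat neural stem cells with and without vitamin C. The genes were listed by name and looked up by symbol in the deposited expression table, where all 7 of 7 were found among 12187 genes. Gene expression was measured by RNA-seq in 3 groups of 2 libraries. VC+ libraries came from cells differentiated from neural stem cells with vitamin C, VC- libraries from cells differentiated without it, and D0 libraries from the neural stem cells. In VC+ and VC- cells the replicate 1 library carried a day label of 4 and the replicate 2 library one of 5, and D0 libraries carried day 0. No transgene, knockout, dose or culture protocol is given in the labels, and they do not state whether a replicate was its own culture or animal. The p-values therefore cover only the spread between these libraries, which need not be a spread between cultures or animals. The question was how the expression of these genes differed between cells with and without the vitamin, and between differentiated cells and stem cells.

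Astrocytes shape the fluid and matrix around neurons through the proteins they release. ApoE and clusterin are the main apolipoproteins made in the brain and carry cholesterol and other lipids to neurons through receptors of the LDL receptor family. Angiotensinogen is the precursor of the angiotensin peptides, and in the brain astrocytes are its main source. SPARC and its relative hevin, encoded by Sparcl1, are matricellular proteins that act on synapse formation in opposite ways, hevin promoting it and SPARC opposing it. Cystatin C, encoded by Cst3, inhibits cysteine cathepsins, and carboxypeptidase E, encoded by Cpe, trims basic residues from the ends of peptide hormone precursors. Several of these genes are not particular to astrocytes: microglia also express Apoe, Cst3 and Sparc, fibroblasts express Sparc, and stem cells and neurons express Cst3 and Cpe.

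Levels are in CPM, read counts that the authors scaled to a common library size and not corrected for transcript length, so they are compared between libraries for 1 gene and not between genes. The listed reads numbered 6641721 and 13184601 in VC+, 5372983 and 11210514 in VC- and 4811094 and 10299321 in D0 cells (replicate 1 and replicate 2 in that order here and below). No member was at 0 in any library. The smallest member count was 62 reads, for Agt in D0 replicate 1. The stem cell label was checked on 3 markers chosen after their values were known, all of which were present. Sox2 stood at 455 and 332 CPM in VC+, 452 and 343 CPM in VC- and 363 and 337 CPM in D0 cells, and Nes, an intermediate filament of neural progenitors, was at 35.3 and 32.5 CPM in VC+, 81.6 and 53.5 CPM in VC- and 159 and 116 CPM in D0 cells. Fabp7, a fatty acid binding protein of radial glia, was at 2016 and 536 CPM in VC+, 2152 and 468 CPM in VC- and 1961 and 768 CPM in D0 cells, lower in replicate 2 in every group. Of the 3, Nes was the one higher in D0 than in VC+ and VC- cells in both replicates. The replicate 2 libraries stood apart. Summed over 14 microglia and macrophage markers they held 1277 CPM in VC+, 1698 in VC- and 858 in D0 cells, against 4.98 CPM in VC+, 6.05 in VC- and 5.80 in D0 cells in replicate 1. In replicate 1 the markers at 0 numbered 7 in VC+, 4 in VC- and 8 in D0 cells, and in replicate 2 none was at 0. Because the libraries are bulk samples, fewer cells of a type and less RNA per cell cannot be told apart in any result that follows.

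Together the 7 genes took 1.46% and 2.61% of the listed reads in VC+ cells, 0.897% and 2.26% in VC- cells and 0.922% and 1.95% in D0 cells. The share was larger in replicate 2 than in replicate 1 in every group, and within each replicate the VC+ library held the largest share. Apoe drew more reads than any other listed gene in VC+ replicate 2 and in VC- replicate 2. By number of reads, which is not corrected for transcript length, it ranked 3 of 12187 genes in VC+ replicate 1, 44 in VC- replicate 1, and 347 and 19 in the D0 libraries.

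The lipid carriers Apoe and Clu stood highest in VC+ cells, lower in VC- cells and lowest in D0 cells in both replicates. Apoe was at 3384 and 5278 CPM in VC+ cells, 830 and 4491 CPM in VC- cells and 258 and 1620 CPM in D0 cells. Its means were 4331 ± 1339 CPM in VC+, 2661 ± 2589 CPM in VC- and 939 ± 963 CPM in D0 cells (SD, n = 2 each). The VC+ libraries did not overlap the D0 libraries, while VC- replicate 2 exceeded VC+ replicate 1. Clu was at 751 and 1624 CPM in VC+, 267 and 954 CPM in VC- and 35.6 and 433 CPM in D0 cells, with the same order and the same overlap as Apoe. In each of the 3 groups both genes were higher in replicate 2 than in replicate 1.

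Agt, the angiotensin precursor, had the same order of groups and no overlap between any of them. It was at 324 and 73.5 CPM in VC+ cells (3388 and 1569 reads), 50.5 and 13.5 CPM in VC- cells (434 and 252 reads) and 7.82 and 4.80 CPM in D0 cells (62 and 73 reads). Its means were 199 ± 177 CPM in VC+, 32.0 ± 26.1 CPM in VC- and 6.31 ± 2.14 CPM in D0 cells (SD, n = 2 each). Agt was the 1 member whose replicate 2 library was below the replicate 1 library in every group.

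The matricellular genes parted in their order. Sparcl1 was at 1348 and 3581 CPM in VC+, 826 and 2148 CPM in VC- and 501 and 1589 CPM in D0 cells, so that VC+ was highest and D0 lowest within each replicate although the groups overlapped. Sparc was at 1710 and 3334 CPM in VC+, 1107 and 3683 CPM in VC- and 623 and 3451 CPM in D0 cells. In replicate 1 Sparc followed the order of Sparcl1, and in replicate 2 its 3 libraries lay close together with VC- highest.

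Cst3, the cathepsin inhibitor, ran the other way. It was at 324 and 488 CPM in VC+ cells, 1237 and 713 CPM in VC- cells and 3067 and 3531 CPM in D0 cells, with means of 406 ± 116 CPM in VC+, 975 ± 370 CPM in VC- and 3299 ± 328 CPM in D0 cells (SD, n = 2 each). No group overlapped another, D0 was highest and VC+ lowest. Cpe, the carboxypeptidase, was at 1430 and 1718 CPM in VC+, 1285 and 1592 CPM in VC- and 1102 and 2550 CPM in D0 cells. Its D0 libraries were at the lowest and the highest of the 6 values, and the differentiated cells lay between them.

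**Figure D1:**
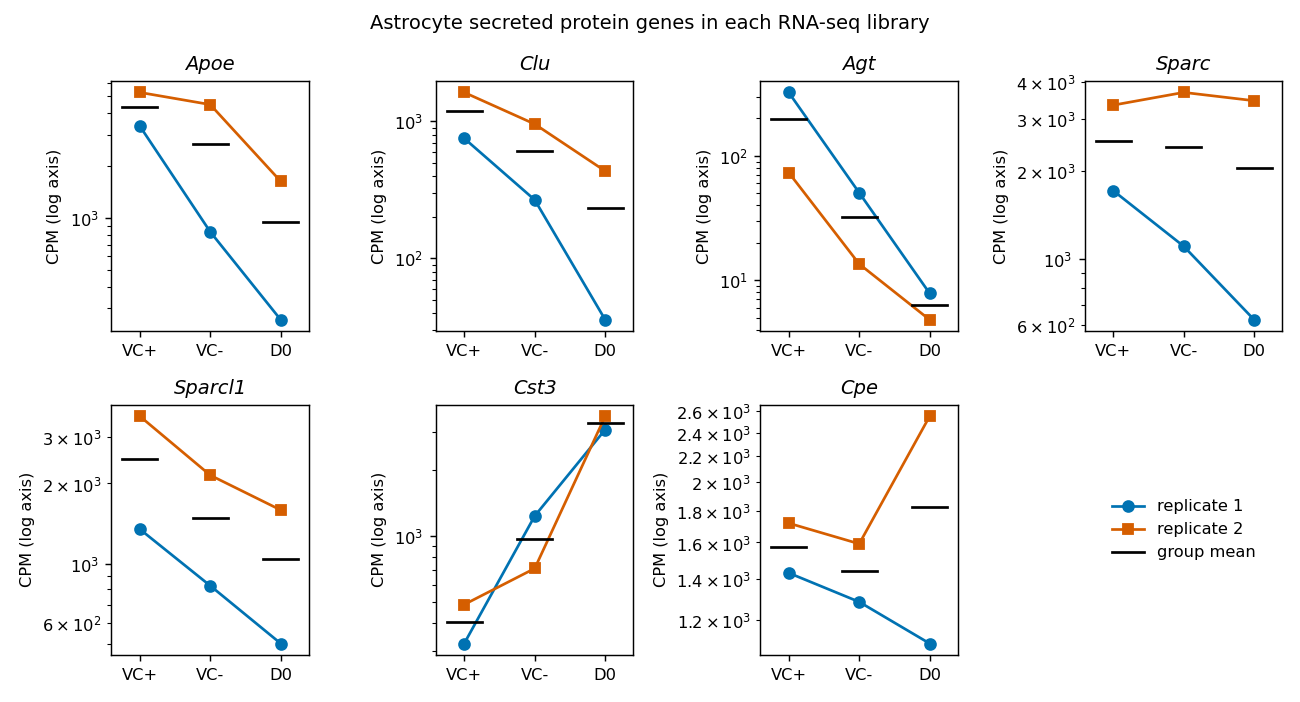
CPM of each gene on a log axis in VC+, VC- and D0 cells, with circles and squares for the replicate 1 and replicate 2 libraries, a line joining the libraries of 1 replicate, and a bar at the group mean of 2 libraries. Apoe, Clu, Agt and Sparcl1 descend through VC+, VC- and D0 in both replicates, Cst3 ascends in both, and Sparc and Cpe differ in order between the replicates.

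Counted over the replicates, 4 of 7 members (Apoe, Clu, Agt and Sparcl1) had VC+ above VC- and VC- above D0 in both, an order found for 6.61% of all 11823 genes tested. The reverse order in both replicates was held by 1 member, Cst3, and by 6.15% of all genes. These shares describe the libraries, and the members were chosen with such values known.

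Between VC+ and VC- cells the largest ratio was that of Agt, and Cst3 was the member lower with the vitamin in both replicates. The Agt ratio of CPM, VC+ over VC-, was 6.42 in replicate 1 (95% exact counting interval 5.81 to 7.12) and 5.43 in replicate 2 (4.75 to 6.22). Such intervals cover read counting in 1 library against 1 and not the spread between libraries. The Cst3 ratio was 0.262 in replicate 1 (0.252 to 0.273) and 0.685 in replicate 2 (0.667 to 0.702). Sparcl1 had nearly the same ratio in both replicates, 1.63 (1.58 to 1.68) and 1.67 (1.65 to 1.69). The Apoe ratio was 4.08 (3.98 to 4.18) in replicate 1 and 1.18 (1.16 to 1.19) in replicate 2, and that of Clu was 2.81 (2.68 to 2.95) and 1.70 (1.67 to 1.73). Both lipid carriers were thus higher with vitamin C in each replicate, by more in replicate 1. Cpe differed least, with ratios of 1.11 (1.09 to 1.14) and 1.08 (1.06 to 1.10). Sparc was above VC- in replicate 1, at 1.54 (1.51 to 1.58), and below it in replicate 2, at 0.905 (0.896 to 0.915).

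Tested over all libraries with limma on log2(CPM + 0.5), no member passed a Benjamini-Hochberg adjusted p of 0.05 between VC+ and VC- cells, and neither did any other gene (0% of genes tested). The log2 difference was 2.53 (SE 0.94, adjusted p 1.000) for Agt and -1.24 (SE 0.47, adjusted p 1.000) for Cst3. It was 1.13 for both Apoe (SE 1.23) and Clu (SE 1.33), where the error was larger than the difference. It was 0.72 (SE 0.90) for Sparcl1, 0.24 (SE 1.10) for Sparc and 0.13 (SE 0.58) for Cpe. Without VC- replicate 1 the value was -0.09 for Apoe, -0.63 for Sparc and -0.02 for Cpe, and without VC+ replicate 2 it was -0.24 for Sparc and -7.8e-04 for Cpe. Agt and Cst3 were among 62 of 11823 genes at an unadjusted p under 0.05 in limma. They were among 66 of 11823 in edgeR, which called 0 genes. DESeq2 called 6 genes (0.0492%) and none of the members. VC+ and VC- libraries of 1 number shared a day label, and with the replicate as a block DESeq2 called 32 genes (0.263%), among them Agt at a log2 difference of 2.57 (SE 0.42, adjusted p 2.35e-06). Limma with the same block called 0 genes and gave Agt an adjusted p of 1.000. Its SE for Agt was 0.39 with the block and 0.94 without it, where spread shared by libraries of 1 replicate counts as error. With 2 libraries per group, the absence of calls does not show that VC+ and VC- cells were alike. The Agt call therefore depended on the test, while its direction was the same in each of the 2 pairs. Groups did not overlap for Agt on the higher side and for Cst3 on the lower side, 1 of 7 each, where all genes gave 8.15% and 7.82%. In both replicates 5 members were higher and 1 lower, against 30.0% and 26.4% of all genes. The median of the 7 log2 differences was 0.72, and that of all genes 0.02.

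Between VC- and D0 cells, differentiation without the vitamin, Cst3 was lower and Apoe, Clu, Agt, Sparc and Sparcl1 were higher in both replicates. The Cst3 ratio, VC- over D0, was 0.403 in replicate 1 and 0.202 in replicate 2. That of Agt was 6.45 (4.94 to 8.56) in replicate 1 and 2.82 (2.17 to 3.72) in replicate 2. Clu stood at ratios of 7.50 and 2.20, Apoe at 3.21 and 2.77, Sparcl1 at 1.65 and 1.35 and Sparc at 1.78 and 1.07. Agt and Clu thus differed more in replicate 1, and Apoe by similar ratios in both. The Cpe ratio was 1.17 in replicate 1 and 0.624 in replicate 2. Limma called no gene (0%) in this comparison, with 382 of 11823 at an unadjusted p under 0.05, and edgeR called 0 with 384. The log2 difference was -1.81 (SE 0.47, adjusted p 1.000) for Cst3 and 2.01 for both Agt (SE 0.94) and Clu (SE 1.33). It was 1.58 (SE 1.23) for Apoe, 0.58 (SE 0.90) for Sparcl1, 0.46 (SE 1.10) for Sparc and -0.23 (SE 0.58) for Cpe. The Sparcl1 value turned to -0.11 without VC- replicate 2 and to -0.25 without D0 replicate 1, and that of Sparc to -0.41 and -0.77 in the same fits. Without D0 replicate 2 the Cpe value was 0.38. DESeq2 without a replicate term called 65 genes (0.631%), with Cst3 the only member among them, at -1.77 (SE 0.43, adjusted p 0.0140). Agt did not pass there (adjusted p 0.475). With the replicate as a block DESeq2 called 458 of 12187 genes, among them Clu, Agt and Cst3, 3 of 7 members. Limma and edgeR with that block called 0 genes. Non-overlapping groups were found for Agt on the higher side and Cst3 on the lower, against 13.8% and 13.2% of all genes. In both replicates 5 members were higher and 1 lower, against 28.6% and 29.5% of all genes. The median log2 difference was 0.58 for the members and 0.01 for all genes.

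Between VC+ and D0 cells Agt, Clu, Apoe, Sparcl1 and Cst3 differed by more than in either other comparison. The Agt ratio, VC+ over D0, was 41.5 (32.3 to 54.2) in replicate 1 and 15.3 (12.1 to 19.6) in replicate 2. That of Cst3 was 0.106 in replicate 1 and 0.138 in replicate 2. Clu stood at ratios of 21.1 and 3.75, Apoe at 13.1 and 3.26 and Sparcl1 at 2.69 and 2.25. All 3 genes were higher in VC+ cells in each replicate. For Sparc the ratio was 2.75 in replicate 1 and 0.966 in replicate 2, and for Cpe 1.30 and 0.674, so each of these genes was above D0 in replicate 1 and below it in replicate 2. In limma the log2 difference was 4.55 for Agt (SE 0.94) and -3.05 for Cst3 (SE 0.47), both at an adjusted p of 0.974. It was 3.14 (SE 1.33) for Clu, 2.71 (SE 1.23) for Apoe, 1.30 (SE 0.90) for Sparcl1, 0.70 (SE 1.10) for Sparc and -0.10 (SE 0.58) for Cpe. The Sparc value was -0.53 without D0 replicate 1, and that of Cpe was 0.04 without VC+ replicate 1 and 0.51 without D0 replicate 2. No gene passed (0%), 507 of 11823 had an unadjusted p under 0.05, and edgeR called 0 with 505. DESeq2 without a replicate term called 135 genes (1.20%), with 2 members among them, Agt at 4.96 (SE 0.95, adjusted p 0.000101) and Cst3 at -3.03 (SE 0.43, adjusted p 3.64e-09). In that fit the adjusted p was 0.559 for Apoe and 0.594 for Clu. With the replicate as a block DESeq2 called 761 of 12187 genes and 5 of 7 members, Apoe, Clu and Sparcl1 beside Agt and Cst3. Limma and edgeR with that block called 0 genes. The labels do not pair D0 libraries with the others, and the block values are given under the dependence on processing. Groups did not overlap for Apoe, Clu and Agt, 3 of 7 members higher, and for Cst3, 1 of 7 lower, against 14.2% and 13.2% of all genes. In both replicates 4 members were higher and 1 lower, against 28.6% and 29.0%. This comparison shares its VC+ libraries and its D0 libraries with the others, so the 3 sets of differences are not independent.

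**Figure D2:**
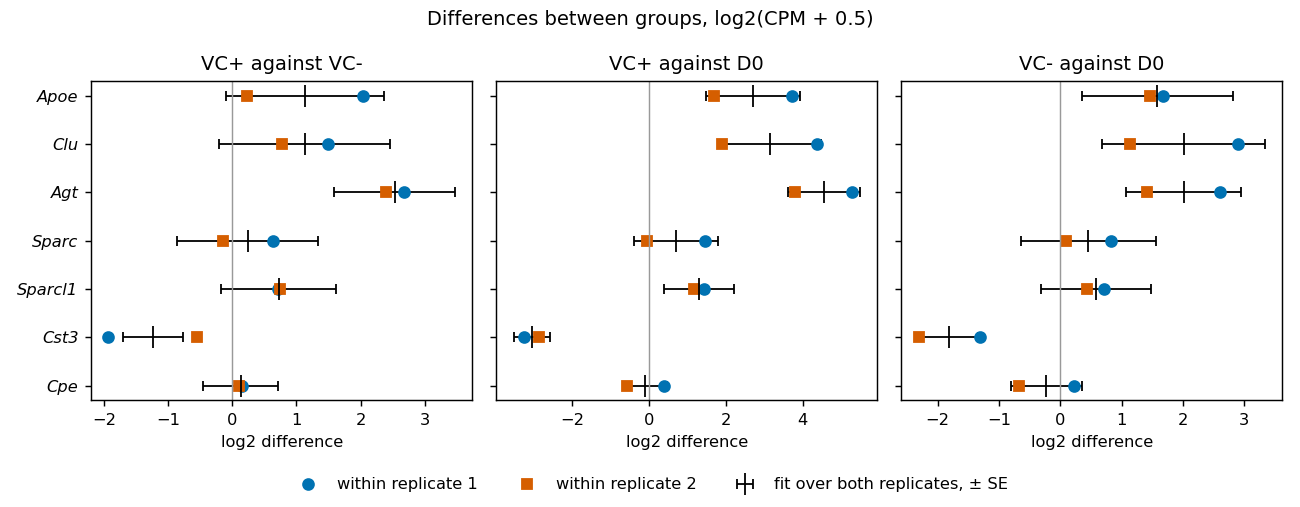
Log2 difference on log2(CPM + 0.5) for each gene in the 3 comparisons, with circles and squares for the difference within replicate 1 and within replicate 2 and a tick with bars for the limma value ± SE over 2 libraries per group. Agt lies right of 0 and Cst3 left of 0 in every comparison and replicate, while Sparc and Cpe have differences on both sides of 0.

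On the log2 scale of the limma fit, Sparc, Sparcl1 and Cpe differed more between replicates than between any pair of groups. Apoe and Clu differed more between replicates than between VC+ and VC- or VC- and D0 cells, and less than between VC+ and D0 cells. Agt and Cst3 differed less between replicates than between any pair of groups. Replicate 2 was above replicate 1 in every group for Apoe, with ratios of 1.56 in VC+, 5.41 in VC- and 6.27 in D0 cells. The ratio for Clu was 2.16 in VC+, 3.58 in VC- and 12.2 in D0 cells. For Sparc it was 1.95 in VC+, 3.33 in VC- and 5.54 in D0 cells, and for Sparcl1 2.66 in VC+, 2.60 in VC- and 3.17 in D0 cells. For Apoe, Clu and Sparc the ratio was smallest in VC+ and largest in D0 cells, and for Sparcl1 it was much the same in all 3 groups. The Agt ratio was 0.227 in VC+, 0.268 in VC- and 0.613 in D0 cells. In a limma fit with group as a term, Sparcl1 (log2 1.48, SE 0.26, adjusted p 0.0207), Sparc (1.72, SE 0.41, adjusted p 0.0416) and Clu (2.18, SE 0.49, adjusted p 0.0369) were higher in replicate 2 and Agt (-1.55, SE 0.32, adjusted p 0.0300) was lower. Apoe lay at the threshold, with 1.91 (SE 0.50, adjusted p 0.0507) in this fit and an adjusted p of 0.0486 with a pseudocount of 0.1 and 3.37e-05 in DESeq2. Cpe had 0.59 (SE 0.34, adjusted p 0.236). Cst3 showed no common direction, with ratios of 1.51 in VC+, 0.577 in VC- and 1.15 in D0 cells. In all 3 of 7 members were called higher and 1 lower, against 17.4% and 7.70% of all genes. Without both VC- libraries no member was called, without both VC+ libraries 1 was (Apoe), and without both D0 libraries 3 were (Clu, Agt and Sparcl1). In VC+ and VC- cells the replicate number goes with the day label and with sequencing depth, so these cannot be told apart. Both D0 libraries carried day 0, so their replicate differences were not between day labels. Replicate number and depth cannot be told apart in D0 cells either.

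**Figure D3:**
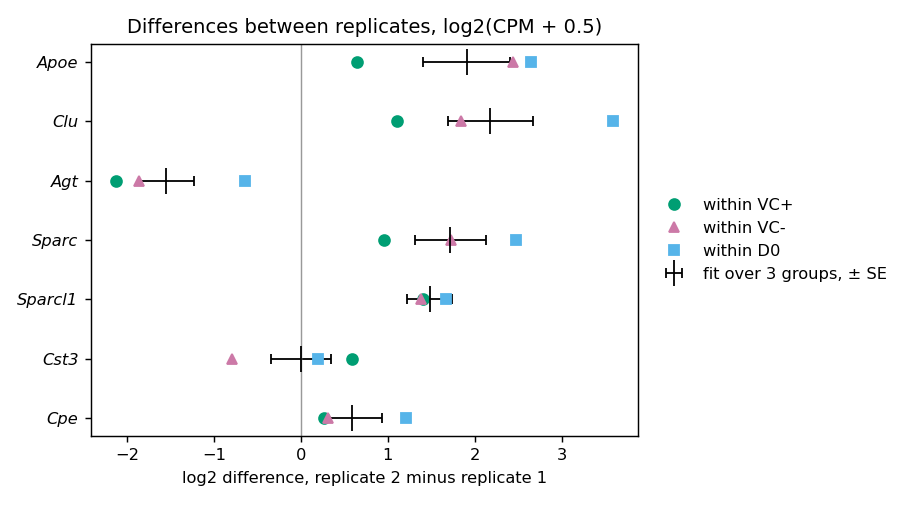
Log2 difference on log2(CPM + 0.5), replicate 2 minus replicate 1, for each gene, with circles, triangles and squares for the difference within VC+, VC- and D0 cells and a tick with bars for the limma value ± SE over the 3 groups. Apoe, Clu, Sparc, Sparcl1 and Cpe lie right of 0 in every group, Agt lies left of 0 in every group, and Cst3 lies on both sides.

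Marker genes of astrocytes and of other cell types are set beside these values. Among 17 astrocyte genes whose products are not secreted, 11 were higher and 1 lower in both VC+ libraries than in the VC- library of the same number. Of all genes 30.0% were higher and 26.4% lower. The median log2 difference of the 17 was 0.70. Their summed level was 7401 and 8645 CPM in VC+, 3670 and 4177 CPM in VC- and 3617 and 4647 CPM in D0 cells, with none at 0 in any library. Gfap, the astrocyte intermediate filament, was at 684 and 2072 CPM in VC+, 101 and 224 CPM in VC- and 1.77 and 57.9 CPM in D0 cells. Aqp4, the water channel of astrocyte endfeet, was at 2322 and 2392 CPM in VC+, 385 and 687 CPM in VC- and 59.1 and 470 CPM in D0 cells. Both genes followed the order of Apoe, Clu, Agt and Sparcl1. Limma called 0 of the 17 in any of the 3 comparisons, and DESeq2 called Gfap and S100b higher in VC+ than in D0 cells. In that comparison DESeq2 called 1.20% of all genes. Microglia and macrophage markers were all called higher in replicate 2, 14 of 14, and fibroblast, pericyte and meninges markers 9 of 10. Of all genes 17.4% were called higher there. C1qa, a complement gene of microglia, was at 0 and 80.5 CPM in VC+, 0.349 and 134 CPM in VC- and 0 and 40.7 CPM in D0 cells. The summed fibroblast level was 168 and 4279 CPM in VC+, 263 and 6389 CPM in VC- and 92.8 and 9392 CPM in D0 cells, and Col1a1, its leading collagen, was at 49.9 and 1759 CPM in VC+, 115 and 2969 CPM in VC- and 39.1 and 5968 CPM in D0 cells. Apoe, Clu, Agt, Sparcl1 and Cst3 had the same direction in both replicates in all 3 comparisons. The part of microglia and fibroblasts in the higher replicate 2 levels of Apoe, Clu, Sparc and Sparcl1, or in differences between groups, was not tested.

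Oligodendrocyte lineage markers ran with the replicates in the direction of Agt. Their summed level over 15 genes was 9603 and 914 CPM in VC+, 13278 and 1185 CPM in VC- and 2325 and 815 CPM in D0 cells. In replicate 2, 10 of 15 were called lower, against 7.70% of all genes. Mbp, the myelin basic protein gene, was at 3212 and 127 CPM in VC+, 5346 and 221 CPM in VC- and 47.3 and 5.85 CPM in D0 cells. Of the 15, 5 were higher and 8 lower in VC+ than in VC- cells in both replicates. All genes gave 30.0% and 26.4%. Mbp was among those lower, unlike Agt, while Sox10 and Cnp were among those higher. Neuron markers summed, over 12 genes, to 559 and 499 CPM in VC+, 700 and 507 CPM in VC- and 542 and 571 CPM in D0 cells. Single neuron markers differed more than this sum, which Map2 leads. Limma called 2 of them higher and 1 lower in replicate 2, against 17.4% and 7.70% of all genes. The neuronal tubulin gene Tubb3, picked with its levels already known, stood at 31.4 and 91.3 CPM in VC+, 46.9 and 91.0 CPM in VC- and 10.5 and 45.7 CPM in D0 cells. Endothelial markers summed to between 3.15 and 29.7 CPM over 6 genes. Ependymal markers summed, over 5 genes, to 44.3 and 850 CPM in VC+, 39.9 and 558 CPM in VC- and 32.2 and 107 CPM in D0 cells. What these cell types contributed to the member levels was not tested.

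**Figure D4:**
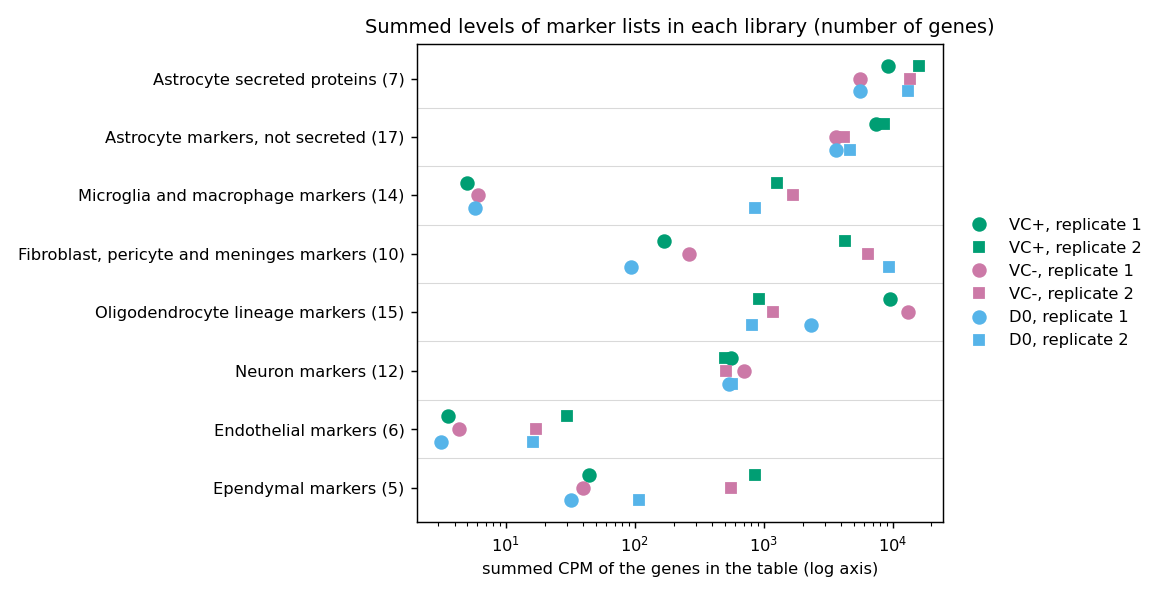
Summed CPM on a log axis for the 7 secreted protein genes and for marker lists of 7 cell types in each library, with colours for VC+, VC- and D0 cells, circles for replicate 1 and squares for replicate 2, and the number of genes in brackets. Microglial and fibroblast sums lie far higher in all replicate 2 libraries, oligodendrocyte sums lie higher in replicate 1, and the astrocyte sums of both VC+ libraries exceed those of the other groups.

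Other secreted proteins of astrocytes went in both directions. Of 31 other astrocyte secreted protein genes, 11 were higher and 10 lower in VC+ than in VC- cells in both replicates, beside 30.0% and 26.4% of all genes. The median log2 difference was 0.14. In VC- against D0 cells 7 were higher and 14 lower, beside 28.6% and 29.5% of all genes (median -0.19). In VC+ against D0 cells 6 were higher and 8 lower, beside 28.6% and 29.0% (median -0.01). Psap, the saposin precursor, was at 1273 and 2269 CPM in VC+, 902 and 2319 CPM in VC- and 889 and 2384 CPM in D0 cells, and Ptn, the growth factor pleiotrophin, at 889 and 849 CPM in VC+, 1588 and 845 CPM in VC- and 1172 and 1498 CPM in D0 cells. Igfbp2, an insulin-like growth factor binding protein, had the order of Cst3, at 123 and 293 CPM in VC+, 222 and 489 CPM in VC- and 699 and 1739 CPM in D0 cells. Limma called none of the 31, and DESeq2 called Igfbp5 lower in VC+ than in D0 cells, where it called 1.20% of all genes. Between replicates limma called 15 of the 31 higher and 3 lower in replicate 2, against 17.4% and 7.70% of all genes.

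ApoE and clusterin act through endocytic receptors and are loaded with lipid by transporters. Of 14 genes of these functions, 5 were higher and 3 lower in VC+ than in VC- cells in both replicates. All genes gave 30.0% and 26.4%. The median of the 14 was 0.09, and 0 of them were called by limma in any of the 3 comparisons. Lrp1, the large endocytic ApoE receptor, was at 1208 and 841 CPM in VC+, 1074 and 1169 CPM in VC- and 1698 and 1713 CPM in D0 cells, highest in D0. Abca1, which loads cholesterol onto ApoE, was at 471 and 382 CPM in VC+, 177 and 513 CPM in VC- and 263 and 428 CPM in D0 cells, with no order shared by the replicates. Pltp, a phospholipid transfer protein, was at 13.8 and 861 CPM in VC+, 32.9 and 877 CPM in VC- and 26.4 and 603 CPM in D0 cells, and thus differed mainly between replicates.

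Of the angiotensin system, 9 genes were tested, and 1 was higher and 4 lower in VC+ than in VC- cells in both replicates (median -0.29). All genes gave 30.0% and 26.4%. The gene of highest mean in this system was Prep, a peptidase that can cut angiotensins, at 76.9 and 55.4 CPM in VC+, 84.2 and 48.5 CPM in VC- and 72.4 and 63.5 CPM in D0 cells. Atp6ap2, the prorenin receptor, was at 30.1 and 53.1 CPM in VC+, 25.2 and 59.0 CPM in VC- and 21.1 and 74.1 CPM in D0 cells. The receptor gene Agtr1a was at 0 and 5.10 CPM in VC+, 0 and 10.5 CPM in VC- and 0 and 13.5 CPM in D0 cells, where 0 reads in replicate 1 allow up to 0.287 CPM in VC+, 0.349 CPM in VC- and 0.378 CPM in D0 cells. Agtr1a and Ace were chosen after their values were seen. Ace, which makes angiotensin II, was at 0.383 and 1.55 CPM in VC+, 1.63 and 1.99 CPM in VC- and 3.53 and 17.0 CPM in D0 cells, lowest in VC+ and highest in D0 within each replicate. Its VC+ replicate 1 value lay near the limit of 0.287 CPM, and in replicate 2 VC+ and VC- were close. The order of VC+ and VC- for Ace thus rests on few reads. Anpep, an aminopeptidase that cuts angiotensins, was at 0.670 and 22.8 CPM in VC+, 1.51 and 12.6 CPM in VC- and 46.4 and 47.1 CPM in D0 cells. Of these genes none was called between the groups by limma, or by DESeq2 without the block.

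Cysteine proteases of the cathepsin and legumain families, which cystatin C inhibits, had 2 of 8 members higher and 2 lower in VC+ than in VC- cells in both replicates (median 0.11). All genes gave 30.0% and 26.4%. Against D0 cells, 6 of the 8 proteases were higher and 1 lower in VC+ cells (median 0.44), beside 28.6% and 29.0% of all genes. Ctsb was at 314 and 833 CPM in VC+, 249 and 899 CPM in VC- and 152 and 826 CPM in D0 cells. Lgmn, encoding legumain, was at 55.1 and 214 CPM in VC+, 39.9 and 255 CPM in VC- and 21.6 and 205 CPM in D0 cells. All 8 were called higher in replicate 2, against 17.4% of all genes, and the microglial markers were also higher there. Ctss, one of the 8, is itself a microglial gene. The part of microglia or other cells in the replicate 2 levels of the proteases was not tested.

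Genes that act beside Cpe in peptide hormone processing were 3 higher and 5 lower of 10 in VC+ against VC- cells (median -0.30). Pam, which amidates peptides with vitamin C as its cofactor, was at 146 and 242 CPM in VC+, 106 and 206 CPM in VC- and 145 and 441 CPM in D0 cells, and Cpd, a related carboxypeptidase, at 39.0 and 77.3 CPM in VC+, 43.8 and 82.3 CPM in VC- and 75.5 and 146 CPM in D0 cells. Relatives and matrix partners of SPARC were 3 higher and 5 lower of 10 (median -0.17). Beside both lists, 30.0% of all genes were higher and 26.4% lower. Col4a1, a basement membrane collagen, was at 78.1 and 863 CPM in VC+, 137 and 1633 CPM in VC- and 971 and 3115 CPM in D0 cells, lowest in VC+ and highest in D0 within each replicate. The collagen genes Col1a1 and Col3a1 of the same list did not have this order in replicate 1, where VC- was highest. In VC- against D0 cells 1 of the 10 SPARC relatives and partners was higher and 1 lower in both replicates. All genes gave 28.6% and 29.5%. Limma called none of these genes between groups.

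The levels of the members over the 6 libraries were compared with one another and with 2724 genes with a mean of at least 20 CPM and a range of at least 1 on the log2 scale, as a description over libraries that share replicate and depth. On log2(CPM + 0.5), Apoe and Clu were most alike (Pearson r 0.98), and each had r 0.93 with Sparcl1. Sparc had r 0.92 with Sparcl1 and -0.02 with Agt, and Agt and Cst3 had r -0.87. The patterns nearest to Apoe were those of Slc4a3 (0.985) and Enpp5 (0.982), and those nearest to Clu were Pygb (0.988) and Kctd15 (0.983). Agt was matched by Rassf2 (0.985) and Glud1 (0.975), the mitochondrial glutamate dehydrogenase. Sparc was matched by Fcgrt (0.994) and Dpysl5 (0.993), and Sparcl1 by Paqr7 (0.991) and the tetraspanin gene Cd9 (0.987). Cst3 was matched by Cacna1h (0.982). Cpe was matched by Slc39a1 (0.993) and Manf (0.990), which encodes a secreted protein of the endoplasmic reticulum.

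Promoters are shown for members with opposite orders, Apoe and Sparcl1 against Cst3. The study's samples include ChIP-seq of nuclear factor I (NFI), a family of transcription factors active in astrocyte differentiation, which was not analysed here. RefSeq gives windows of 300 bases on GRCr8, 250 before and 50 after the start, for 5 of the 7 members and 7 start sites, and none was matched for Clu and Agt. In capitals is the NFI motif TTGGC, or GCCAA where it lies on the other strand. The Apoe windows are chr1:88485767-88486066 and chr1:88484650-88484949, both on the minus strand, the Sparcl1 window is chr14:5937234-5937533 on the plus strand and the Cst3 window is chr3:156793888-156794187 on the minus strand.
Apoe, start site 1: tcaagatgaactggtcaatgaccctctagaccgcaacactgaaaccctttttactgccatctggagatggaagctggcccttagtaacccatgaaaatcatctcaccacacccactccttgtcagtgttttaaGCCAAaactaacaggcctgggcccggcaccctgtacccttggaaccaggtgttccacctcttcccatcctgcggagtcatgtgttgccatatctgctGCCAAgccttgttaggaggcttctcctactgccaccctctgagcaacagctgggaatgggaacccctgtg
Apoe, start site 2: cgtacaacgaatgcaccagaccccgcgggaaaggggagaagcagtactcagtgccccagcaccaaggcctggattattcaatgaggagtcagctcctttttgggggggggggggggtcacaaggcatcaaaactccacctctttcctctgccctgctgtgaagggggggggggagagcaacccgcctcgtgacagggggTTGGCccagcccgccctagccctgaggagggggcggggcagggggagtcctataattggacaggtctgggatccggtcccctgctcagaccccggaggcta
Sparcl1: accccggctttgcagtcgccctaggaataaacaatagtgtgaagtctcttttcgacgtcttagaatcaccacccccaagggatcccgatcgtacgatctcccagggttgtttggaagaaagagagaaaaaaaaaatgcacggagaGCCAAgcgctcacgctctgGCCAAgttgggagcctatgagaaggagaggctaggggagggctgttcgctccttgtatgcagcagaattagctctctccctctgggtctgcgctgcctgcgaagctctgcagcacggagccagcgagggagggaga
Cst3: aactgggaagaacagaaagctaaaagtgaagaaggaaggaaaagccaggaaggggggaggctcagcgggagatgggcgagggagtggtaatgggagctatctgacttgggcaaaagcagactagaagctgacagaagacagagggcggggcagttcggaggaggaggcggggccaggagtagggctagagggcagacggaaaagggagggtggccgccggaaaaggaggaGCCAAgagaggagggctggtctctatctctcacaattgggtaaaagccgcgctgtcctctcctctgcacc
The motif was found on either strand in 6 of the 7 windows and in 4 of the 5 members, Sparc having none. The Apoe windows of start sites 2 and 3 overlap and hold the same copy of it. It is in 45.8% of all 33469 promoters of this length, and it was present in members of both orders. The STAT motif TTCNNNGAA, searched on both strands and held by 8.87% of promoters, was in none of the 7 windows. CpG sites numbered 3, 10 and 12 in the Apoe windows of start sites 1, 2 and 3. There were 3 in the window of Sparc, 15 in that of Sparcl1, 10 in that of Cst3 and 22 in that of Cpe. The median of all promoters was 7. A match is a description of letters in a window and not of binding.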

How the data were processed

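Of 24 samples, the 6 RNA-seq libraries were used; the 18 methylation, hydroxymethylation, ChIP and input samples were not analysed here. The authors deposited CPM per gene; per the submitters' processing notes the rn5 build, the aligners STAR 2.5.1 and Bowtie2 2.1.0, CASAVA 1.7, edgeR 3.12.1, deepTools 2.4.2 and HOMER 4.9.1 were used, with no role given. A TruSeq kit was used for the RNA libraries per the labels' protocols, and the read counter, annotation, strand setting and gene filter are not given in the sources used here. In each library all deposited CPM values (100.0%) were whole multiples of a common step, to a tolerance of 1e-06, and dividing by it gave back reads for count tests. Listed reads were 60.2% to 67.7% of the total behind the CPM, and 3 reads, the limit that a count of 0 allows, are 0.140 to 0.378 CPM.

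The 11823 genes that reached 1 CPM in 2 or more libraries were tested with limma 3.58.1 (trend, two-sided) in R 4.3.3 on log2(CPM + 0.5), 3 groups in 1 fit with 3 residual degrees of freedom, and Benjamini-Hochberg adjustment over all genes. A fold change on this scale understates changes of low genes. An exact permutation test of 2 libraries against 2 cannot go below p 0.333 and was not used. Alternatives were DESeq2 1.42.0 and edgeR 4.0.16 on those reads, other pseudocounts (0.1 and 2), filters and scalings, fits of 2 groups, each library left out, values within each replicate, and a replicate block; edgeR and DESeq2 with the block were added after seeing the data. VC+ and VC- libraries of 1 number share a day label, and their deviations from the group means correlated at 0.914 across genes, so that comparison is also given paired. Code was tested on simulated data. The members and lists were chosen with earlier results of these data known. The naming rule took all members, the 2 genes most like each in Pearson r, up to 3 genes of highest mean per list, and Gfap, C1qa, Col1a1 and Mbp; other named genes were chosen after their values were seen, and 1 gene under the rule is not reported here.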

Additional observations from a re-analysis of the deposited data

Results flagged for a closer look

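Sparc and Cpe had differences of opposite sign in the 2 replicates, beyond counting error, in 2 comparisons each. Between VC+ and VC- cells Sparc had a log2 difference of -0.14 in replicate 2 and 0.63 in replicate 1, and these values differed by -0.77. Between VC+ and D0 cells Sparc had -0.05 in replicate 2 and 1.46 in replicate 1, which differed by -1.51. Cpe had -0.57 in replicate 2 and 0.38 in replicate 1 between VC+ and D0 cells, which differed by -0.95. Between VC- and D0 cells Cpe had -0.68 in replicate 2 and 0.22 in replicate 1, which differed by -0.90. With 1 library per group in each replicate, none of these differences between replicates was tested.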

How the results depend on the processing

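With 2 libraries per group, DESeq2 was the tool that made calls between groups. Limma with any pseudocount, filter, scaling or library left out, limma with the replicate block and edgeR with or without it called 0 members in all 3 comparisons. DESeq2 called 6 genes (0.0492%) for VC+ against VC-, 65 (0.631%) for VC- against D0 (members: 1) and 135 (1.20%) for VC+ against D0 (members: 2). With the replicate block DESeq2 called 32 of the 12187 listed genes for VC+ against VC- (members: 1 of 7, Agt). It called 458 of the 12187 for VC- against D0 (members: 3 of 7, Clu, Agt and Cst3). For VC+ against D0 it called 761 of the 12187 (members: 5 of 7, Apoe, Clu, Agt, Sparcl1 and Cst3). D0 libraries share only a number with the others, so the labels do not pair them. Deviations correlated at 0.73 between VC- and D0 and 0.688 between VC+ and D0. The ratios and counts against D0 in the results match libraries by that number alone. Adjusted p against D0 with the block are given here only. With the block, the adjusted p for VC- against D0 was 0.000412 for Agt, 0.00118 for Cst3 and 0.0315 for Clu. For VC+ against D0 it was 1.31e-22 for Agt, 2.96e-11 for Cst3, 6.83e-06 for Clu, 6.88e-06 for Apoe and 1.34e-05 for Sparcl1. The causes of these differences between tools were not tested.

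Agt and Cst3 kept their direction between groups under every alternative run, and so did Clu. Leaving out each library gave log2 ranges for VC+ against VC- of -0.09 to 2.35 for Apoe (lowest without VC- replicate 1), -0.63 to 1.11 for Sparc and -0.02 to 0.29 for Cpe. For VC- against D0 the ranges were -0.77 to 1.70 for Sparc, -0.25 to 1.41 for Sparcl1 and -0.83 to 0.38 for Cpe, and for VC+ against D0 -0.53 to 1.94 for Sparc and -0.70 to 0.51 for Cpe. Within 1 replicate, Sparc reversed to -0.14 (VC+ against VC-) and -0.05 (VC+ against D0) in replicate 2, and Cpe to 0.22 (VC- against D0) and 0.38 (VC+ against D0) in replicate 1. Between replicates, genes called ran from 44 (without both VC- libraries) through 761 (without both VC+ libraries) to 4987 (without both D0 libraries), against 2971 with all, and members called from 0 to 3, against 4. Apoe became the fifth member called with a pseudocount of 0.1 (adjusted p 0.0486), a filter of 5 CPM (0.0463), median-of-ratios (0.0476) or TMM (0.0475) rescaling and DESeq2 (3.37e-05). Cst3 lies at 0 in that comparison, with -5.5e-05. It was at 3.9e-05 with a pseudocount of 0.1, 0.03 with either rescaling, edgeR or DESeq2, 0.20 within D0 and 0.59 within VC+ cells, and -0.30 to 0.40 with a group left out. Replicate 1 libraries were the shallower ones, which limits markers near 0 more than the members.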
